A study of Mus musculus with 13 samples.

Results

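The Egr and Nr4a genes, together with Arc, Ier2 and Btg2, belong to the immediate-early genes that neurons and other cells switch on when calcium enters or a growth factor binds. Each of 10 such genes (Egr1, Egr2, Egr3, Egr4, Nr4a1, Nr4a2, Nr4a3, Arc, Ier2 and Btg2) was followed through retinae of PGC-1α knockout (KO) and wildtype (WT) mice, kept in the dark or exposed to strong light. The genes were chosen by name, with earlier results of these data known. A probe set was taken where its annotation holds exactly 1 symbol and that symbol is one of them. All 10 had 1 probe set each, out of 34760 probe sets and 19937 named genes on the array.

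RNA of the 2 pooled retinae of each mouse was read on an Affymetrix Mouse Gene 1.0 ST array, which covers whole transcripts with many short probes. The series holds 3 arrays of KO mice after light (KO light), 3 of WT mice after light (WT light), 3 of KO mice kept in the dark (KO dark) and 4 of WT mice kept in the dark (WT dark). KO mice lack PGC-1α, a coactivator of mitochondrial genes, in the whole body and throughout life, and were on a C57 BL/6 background. WT mice were C57 BL/6 NRj mice bought from a supplier, so KO and WT mice were not described as littermates. Per the methods, mice were 6 to 13 weeks old, were dark adapted for 16 h and received 15000 lux for 2 h with dilated pupils. The methods add a night of recovery in darkness before analysis, whereas the design text deposited with the arrays has the eyes taken after exposure, so the interval between light and sampling is not settled for these arrays. By the labels the mice of both light groups were male and those of both dark groups female, except for the male mouse of WT dark 4. The methods name male mice only, but the arrays went with the labels. Log2 intensities of Xist, a female marker, were 11.86 to 12.02 in KO dark and WT dark 1 to 3. They were 4.67 to 5.31 in the light arrays and WT dark 4. Those of Uty, a male marker, were 4.14 to 4.42 and 9.11 to 9.53 in the same order. Sex and light therefore cannot be told apart in the light comparisons.

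All values below are log2 of the deposited intensity, so that a difference of 1 stands for a factor of 2. A linear model with 4 groups was fitted with limma to 12 arrays, without WT dark 4, since the study states 3 arrays per group. Calls needed an adjusted p under 0.05 (Benjamini-Hochberg, over all 19937 genes) and a ratio either from 1.2 upwards or from 0.87 downwards. With 3 arrays against 3, an exact permutation test cannot give a p under 0.1, so the model across all genes was the only test. Ppargc1a, which encodes PGC-1α, had log2 intensities between 9.96 and 10.25 in KO light, 9.85 and 9.99 in WT light, 10.19 and 10.40 in KO dark and 10.01 and 10.03 in WT dark 1 to 3, so it was not lower in KO arrays and its level does not show the knockout. Which part of the gene its probes cover was not given in the sources used here. Among these arrays, 2 resembled another group more than their own. The array labelled WT dark 4 correlated more closely with KO light 1 and 2 (r = 0.997 over all genes) than with WT dark 1 to 3 (r = 0.989). For the array labelled KO light 3 this order was turned round, with r = 0.992 to KO light 1 and 2 and r = 0.997 to WT dark 1 to 3. Results are therefore given as labelled, then with the array labelled WT dark 4 in place of that labelled KO light 3 (the exchanged arrays). Where it matters, they are also given without KO light 3. Both arrays were singled out by these same intensities. Spreads, SE, p-values and calls of those fits are therefore descriptions and not independent tests.

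EGR proteins are zinc finger transcription factors that bind GC-rich sites, and NR4A proteins are orphan nuclear receptors that need no known ligand. Both families are induced at first by factors already present in the cell, above all CREB, which binds the cAMP response element (CRE), and the serum response factor, which binds the CArG box. In the retina, light and visual contrast are known to induce Egr1 in amacrine and other inner retinal neurons, and injury induces immediate-early genes in Müller glia. Because whole retinae were used, a change in the number of cells of a type and a change in RNA per cell cannot be told apart.

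Promoter windows from RefSeq (assembly GRCm38.p6, mouse) covering the 250 bases before the transcription start were on hand for 6 of the 10 genes: Btg2, Egr2, Egr4, Nr4a1, Nr4a2 and Nr4a3. Windows of 3 of them are shown, since they belong to an NR4A, an EGR and a further gene that were called in KO light with the exchanged arrays. Capitals mark the half-site of the CRE (TGACG, or CGTCA on the other strand), the full CRE (TGACGTCA) in Btg2 and the CArG box in Egr2.
Nr4a1, chr15:101266596-101266845, plus strand: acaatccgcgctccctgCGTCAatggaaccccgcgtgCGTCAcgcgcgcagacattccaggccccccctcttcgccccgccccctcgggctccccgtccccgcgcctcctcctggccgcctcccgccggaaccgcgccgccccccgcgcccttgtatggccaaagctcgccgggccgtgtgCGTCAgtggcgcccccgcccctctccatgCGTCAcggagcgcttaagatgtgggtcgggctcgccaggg
Egr2, chr10:67537619-67537868, plus strand: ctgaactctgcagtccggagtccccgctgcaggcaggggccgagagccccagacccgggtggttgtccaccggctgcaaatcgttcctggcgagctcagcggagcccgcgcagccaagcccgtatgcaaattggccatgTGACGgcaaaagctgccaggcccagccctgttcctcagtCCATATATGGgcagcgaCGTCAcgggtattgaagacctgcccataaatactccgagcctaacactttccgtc
Btg2, chr1:134079156-134079405, minus strand: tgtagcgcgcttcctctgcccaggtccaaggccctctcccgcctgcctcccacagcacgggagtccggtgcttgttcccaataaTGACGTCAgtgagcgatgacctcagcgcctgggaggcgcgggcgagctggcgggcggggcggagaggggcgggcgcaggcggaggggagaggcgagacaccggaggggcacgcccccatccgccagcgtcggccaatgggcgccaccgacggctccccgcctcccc
The window of Egr2 is the third of 5 that the table lists for this gene, and it was taken as the first with the most kinds of motif. Of the other windows of Egr2, the fourth and the fifth hold the same matches further upstream, the second holds the CArG box but no half-site, and the first holds neither.

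Every one of the 6 genes had at least 1 CRE half-site on either strand, for Egr2 in 3 of its 5 windows, a motif found in 17.8% of all 32851 windows of this length and in 19.8% of the 27025 genes. Nr4a1, Nr4a2 and Nr4a3 had 4 half-sites each, and Egr4, Btg2 and the shown window of Egr2 had 2 each. In Btg2 both half-sites are the strands of a single full CRE, whose first base is at -166 from the start and which occurred in 1.55% of all windows. Egr2 had a CArG box with its first base at -72 (1.47% of all windows). Nr4a1 had a match to the EGR site (GCGTGGGCG or GCGGGGGCG) with its first base at -60, left in small letters above, and 3.06% of all windows had one. The NR4A site NBRE (AAAGGTCA) and the AP-1 site (TGANTCA) were in none of the 6 genes, against 1.34% and 6.75% of all windows. These are matches of letters on both strands, and no binding was measured.

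**Figure D1:**
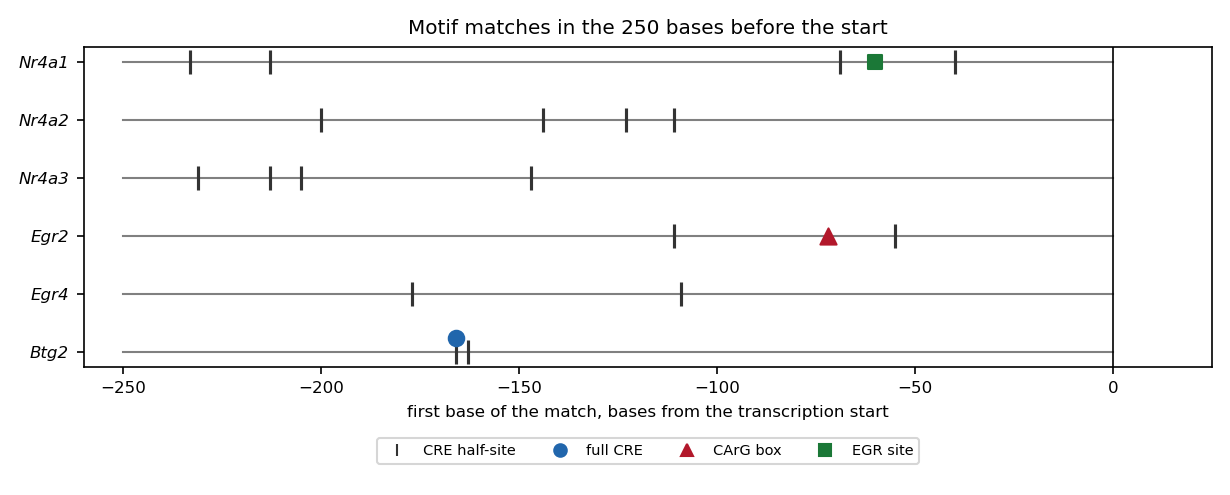
Motif matches in the 250 bases before the transcription start of the 6 genes with a RefSeq window, 1 line per gene, with the first base of each match on the x axis in bases from the start; for Egr2 the third of its 5 windows is drawn. Half-sites of the CRE are on every line, the full CRE lies in Btg2, the CArG box in Egr2 and the EGR site in Nr4a1.

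Egr1, the best known of the EGR factors, was low in WT dark 1 to 3. Its log2 intensity was 9.56, 8.36 and 7.80 in the KO light arrays 1 to 3 and 7.83, 8.17 and 8.52 in the WT light arrays. It was 8.67, 8.49 and 8.83 in the KO dark arrays, against 7.19, 7.23 and 6.96 in WT dark 1 to 3. The array labelled WT dark 4 stood at 9.61, above every other array. Egr1 was thus lower in WT dark 1 to 3 than in each of the other arrays, with a gap of 0.56 between the highest WT dark and the lowest other array. Group means ran from 8.66 ± 0.17 in KO dark over 8.57 ± 0.90 in KO light and 8.17 ± 0.35 in WT light to 7.13 ± 0.15 in WT dark (SD, n = 3 each), and only the step to WT dark was wider than the spread of the neighbours.

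Nr4a1, which encodes the nuclear receptor Nur77, had the same low WT dark arrays. Its log2 intensity was 10.31, 10.18 and 8.45 in KO light and 8.72, 8.93 and 9.22 in WT light. Dark arrays had 9.45, 8.93 and 8.77 in KO and 8.06, 8.17 and 8.13 in WT dark 1 to 3, and the array labelled WT dark 4 had 10.18. KO light 1 and 2 and the array labelled WT dark 4 lay together at the top, and KO light 3 lay below all WT light and KO dark arrays, 0.28 above the highest of WT dark 1 to 3. Of the 10 genes, 2 (Egr1 and Nr4a1) were lower in WT dark 1 to 3 than in all other 9 arrays of the fit, while 1.24% of all genes (248 of 19937) had this pattern. Among 70 further genes of the lists described below it was found in 4, of which Fos had the widest gap (0.35). The genes and lists were chosen with earlier results of these data known, so these counts are a description and not a test.

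**Figure D2:**
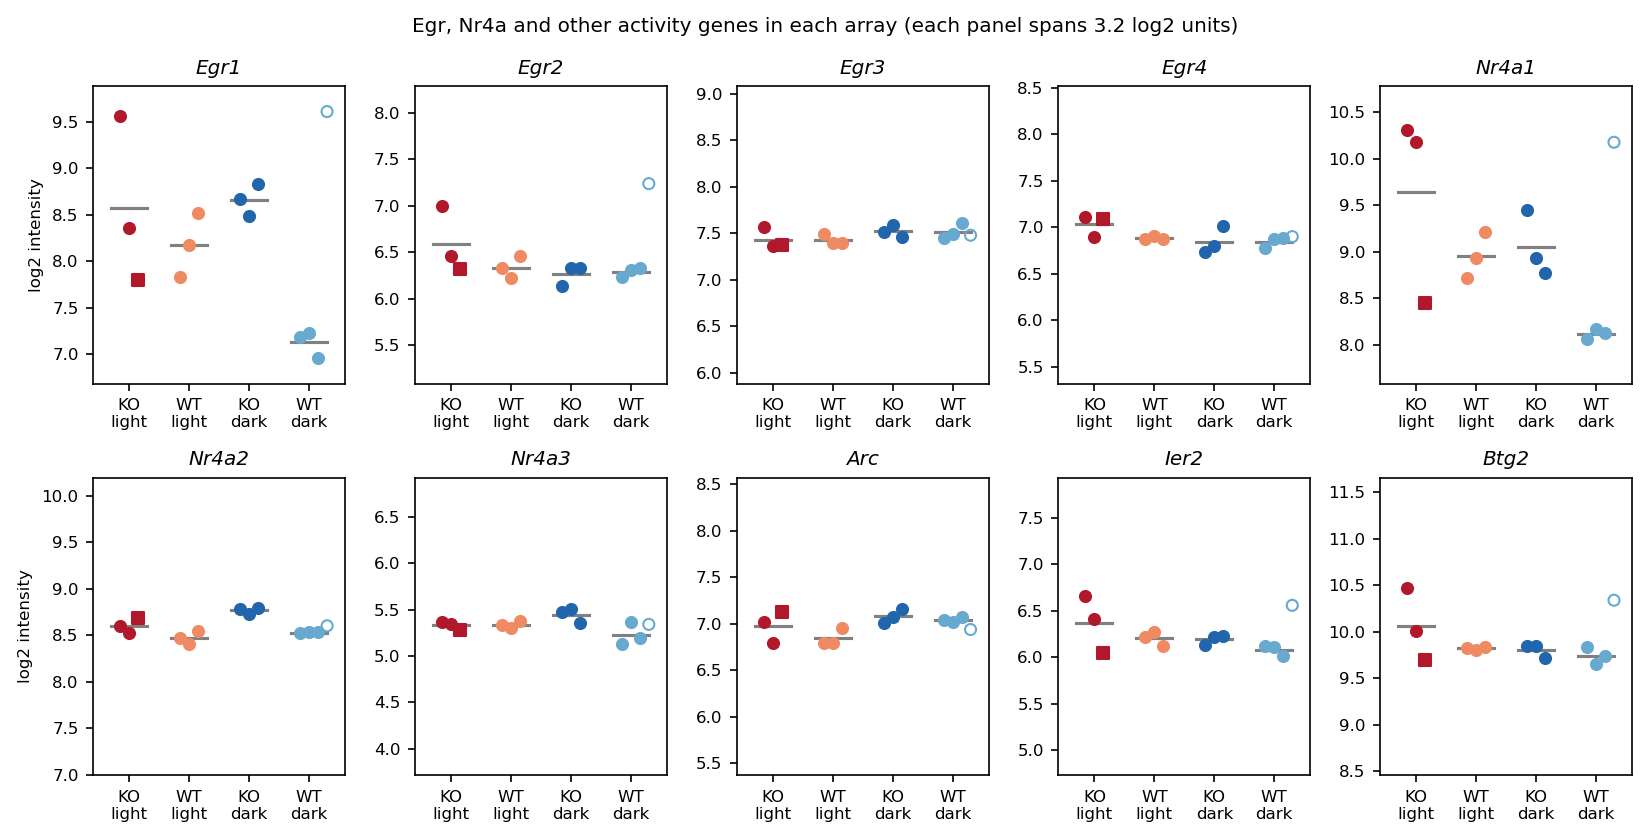
Log2 intensity of each of the 10 genes in every array (y axis, each panel spanning the same number of log2 units), by group on the x axis; grey lines are group means as labelled, the square is the array labelled KO light 3 and the open circle the array labelled WT dark 4, which is not in the WT dark mean. WT dark 1 to 3 lie below all other arrays for Egr1 and Nr4a1, and the open circle lies with the upper KO light arrays for Egr1, Egr2, Nr4a1, Ier2 and Btg2.

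Egr2, Ier2 and Btg2 shared a different form, in which single KO light arrays stood out. Egr2, known as Krox20 and as a factor of myelinating Schwann cells, had 7.0, 6.46 and 6.32 in KO light and 6.33, 6.22 and 6.46 in WT light. Its dark values were 6.14, 6.33 and 6.33 in KO and 6.24, 6.31 and 6.33 in WT, with 7.24 in the array labelled WT dark 4. KO light 1 and the array labelled WT dark 4 were high, and the other 11 arrays lay between 6.14 and 6.46.

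Btg2, an antiproliferative protein that binds the CCR4-NOT deadenylase, was highest in the same arrays. It had 10.47, 10.01 and 9.70 in KO light, 9.83, 9.81 and 9.84 in WT light, 9.85, 9.85 and 9.72 in KO dark and 9.84, 9.65 and 9.74 in WT dark, with 10.34 in the array labelled WT dark 4. Ier2, a nuclear protein induced early by growth factors, had 6.66, 6.41 and 6.05 in KO light and 6.22, 6.27 and 6.12 in WT light. In the dark it had 6.13, 6.22 and 6.23 in KO and 6.12, 6.11 and 6.01 in WT, with 6.56 in the array labelled WT dark 4. For both genes KO light 1, KO light 2 and the array labelled WT dark 4 were above all other arrays, and KO light 3 was not.

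The other members moved little. Egr3 lay between 7.36 and 7.61 in all 13 arrays, and Egr4 between 6.73 and 7.11. Nr4a3 (NOR1) lay between 5.13 and 5.51, low enough that a filter on dim genes removed it. Arc, whose protein acts at synapses in the removal of AMPA receptors, had 7.02, 6.79 and 7.13 in KO light, 6.80, 6.80 and 6.96 in WT light, 7.01, 7.07 and 7.16 in KO dark and 7.04, 7.02 and 7.07 in WT dark, so that all WT light arrays were below all WT dark arrays. Nr4a2 (Nurr1), a factor that dopaminergic neurons need, had 8.60, 8.52 and 8.68 in KO light, 8.47, 8.40 and 8.54 in WT light, 8.78, 8.73 and 8.79 in KO dark and 8.52, 8.53 and 8.53 in WT dark. Its 3 KO dark arrays were the highest of the fit, but only just, at 8.73 for the lowest against 8.68 in KO light 3. How many of all genes had this pattern was not counted.

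Light in KO mice was the first comparison. As labelled, limma called 0 of the 10 genes between KO light and KO dark, in a comparison in which 0.100% of all genes were called (20 of 19937). Without moderation of the variances it was 0 as well. At an unadjusted p under 0.05 with the ratio limits kept, 1 gene passed, Egr2 (log2 difference 0.33, SE 0.14, adjusted p = 0.314), against 5.48% of all genes. Egr1 differed by -0.09 (SE 0.33, adjusted p = 0.936) and Nr4a1 by 0.60 (SE 0.37, adjusted p = 0.512), with arrays that overlapped for both. Nr4a2 was lower in all 3 KO light arrays than in all 3 KO dark arrays (log2 difference -0.16, SE 0.05, adjusted p = 0.221), a form that 6.67% of all genes had.

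With the exchanged arrays, 4 of the 10 genes rose in KO light against KO dark and none fell. In that fit 13.3% of all genes were called, 7.01% higher and 6.30% lower. As the exchange was chosen by the intensities, the p-values and spreads here describe the exchanged fit and are no independent test. Nr4a1 rose by 1.18 (SE 0.15, adjusted p = 0.000146) to 10.22 ± 0.07 in KO light, against 9.05 ± 0.35 in KO dark (SD, n = 3 each). Egr2 rose by 0.63 (SE 0.14, adjusted p = 0.0072), Btg2 by 0.47 (SE 0.09, adjusted p = 0.00336) and Ier2 by 0.35 (SE 0.06, adjusted p = 0.002), and for all 4 the KO light arrays lay above the KO dark arrays, as for 20.0% of all genes. Egr1, at 9.18 ± 0.71 in KO light against 8.66 ± 0.17 in KO dark, was not called (log2 difference 0.51, SE 0.27, adjusted p = 0.195), and KO light 2 lay below all KO dark arrays. Its difference moved with the arrays of KO light. It was 0.92 (SE 0.16, adjusted p = 0.00148) in the exchanged fit without KO light 2, where 15.0% of all genes were called, and 0.32 (SE 0.29, adjusted p = 0.472) in the exchanged fit without KO light 1. As labelled and without KO light 1 it was -0.59 (SE 0.20, adjusted p = 0.408), and 1 of 25 settings called it. Nr4a2 had -0.19 (SE 0.05, adjusted p = 0.0096) at a ratio of 0.875, which just missed the limit of 0.87 for a fall, so it was not called.

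Leaving out KO light 3 and putting no array in its place also changed the calls. KO light, now 2 arrays, shared 1 pooled estimate of the spread with the other groups. It was then called higher than KO dark for Nr4a1 (1.2), Egr2 (0.47), Btg2 (0.43) and Ier2 (0.34) and lower for Nr4a2 (-0.20). Adjusted p lay between 0.000881 for Nr4a1 and 0.0306 for Egr2. In that fit 9.94% of all genes were called. The 5 calls thus came without the array labelled WT dark 4 and were absent with the array labelled KO light 3 in the group.

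In WT mice, light against dark gave 0 of 10 calls as labelled, in a comparison in which 0.431% of all genes were called, and again 0 without moderation. Egr1 and Nr4a1 passed at an unadjusted p under 0.05 with the ratio limits, as did 5.76% of all genes. Egr1 was 8.17 ± 0.35 in WT light and 7.13 ± 0.15 in WT dark (SD, n = 3 each), a difference of 1.04 (SE 0.33, adjusted p = 0.15). Nr4a1 was 8.96 ± 0.25 in WT light and 8.12 ± 0.06 in WT dark (difference 0.84, SE 0.37, adjusted p = 0.276). For both genes every WT light array lay above every WT dark array, as for 17.5% of all genes. Arc was lower in all WT light arrays (difference -0.19, SE 0.08, adjusted p = 0.255), as were 10.7% of all genes. The other 7 genes had differences between -0.09 and 0.12 and overlapping arrays.

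The same differences were called with other estimates of the spread. The arrays of KO light do not enter the means of this comparison, but they set the error of the model. With the exchanged arrays the adjusted p was 0.0343 for Egr1 and 0.00654 for Nr4a1, where 4.41% of all genes were called. With only the 6 WT arrays it was 0.0166 for Egr1 and 0.0103 for Nr4a1, against 3.41% of all genes called. Without KO light 1 it was 0.0297 for Egr1 alone, against 0.742% of all genes.

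Genotype in the dark was compared between KO dark and WT dark, groups that the labels give as female alike. As labelled, 0 of 10 genes were called, and 0 without moderation, against 0.0752% of all genes. At an unadjusted p under 0.05 with the ratio limits, Egr1 and Nr4a1 passed, against 2.11% of all genes. Egr1 stood at 8.66 ± 0.17 in KO dark and 7.13 ± 0.15 in WT dark (SD, n = 3 each), a 2.9-fold difference (log2 difference 1.54, SE 0.33, adjusted p = 0.12). Nr4a1 had 9.05 ± 0.35 in KO dark and 8.12 ± 0.06 in WT dark (difference 0.93, SE 0.37, adjusted p = 0.598). Nr4a2 had a difference of 0.24 (SE 0.05, adjusted p = 0.13) at a ratio of 1.18, under the limit for a rise. Egr1, Nr4a1, Nr4a2 and Ier2 were higher in every KO dark array than in every WT dark array, as were 9.26% of all genes.

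Here too the call turned on the arrays that set the error. With only the 6 dark arrays, Egr1 (adjusted p = 0.000529) and Nr4a1 (adjusted p = 0.0367) were called, with the same log2 differences of 1.54 and 0.93, against 0.722% of all genes. With the exchanged arrays they were called at adjusted p = 0.0134 for Egr1 and 0.00752 for Nr4a1, and Nr4a2 reached 0.0261 without passing the ratio limit, where 0.878% of all genes were called. Without KO light 1, Egr1 alone was called (adjusted p = 0.00692), against 0.100% of all genes. With the array labelled WT dark 4 counted as a WT dark array, the difference of Egr1 fell to 0.92 (adjusted p = 0.872). The comparison of WT light with WT dark and that of KO dark with WT dark share WT dark 1 to 3, so they are not independent of each other.

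**Figure D3:**
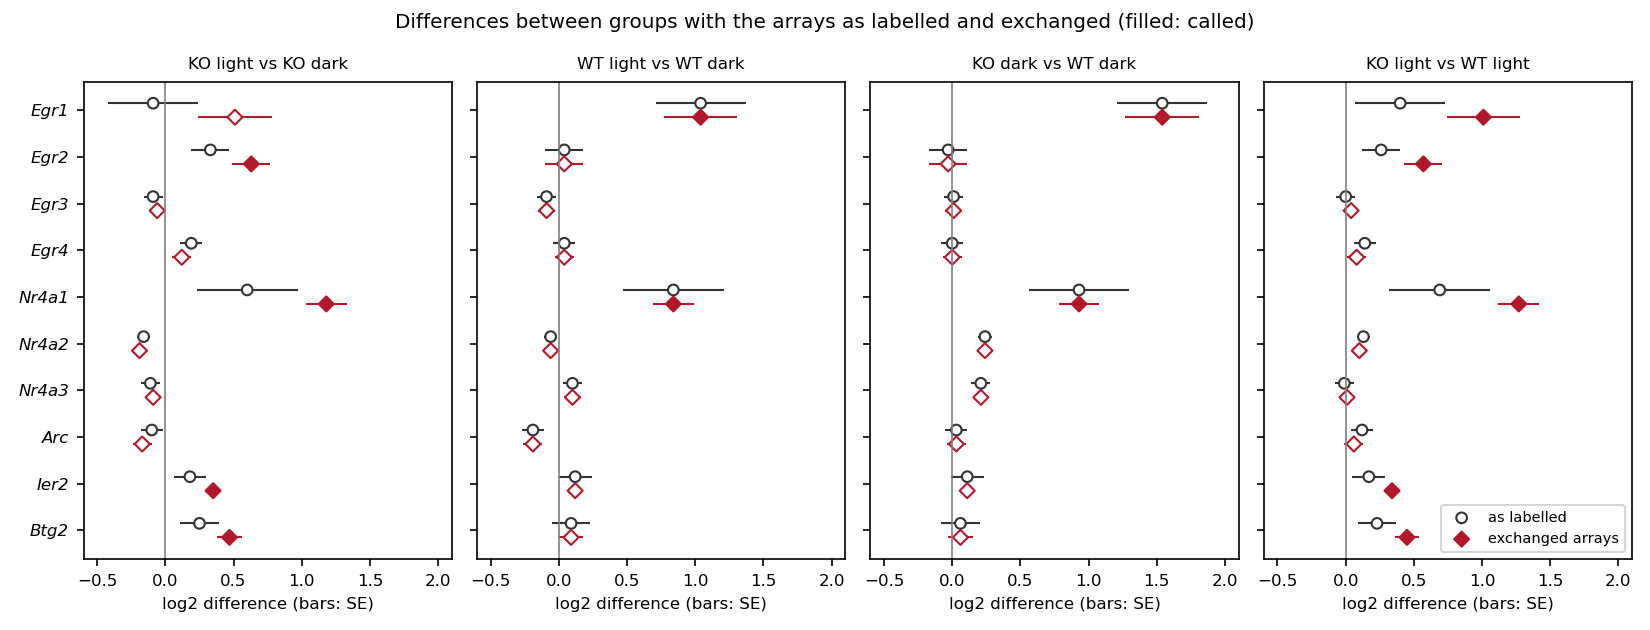
Log2 difference (x axis, bars are SE) of each gene in 4 comparisons, with the arrays as labelled (circles) and exchanged (diamonds); filled symbols were called. No circle is filled, and the filled diamonds are Egr1 and Nr4a1 against WT dark and Egr2, Nr4a1, Ier2 and Btg2 in KO light, with Egr1 added against WT light.

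After light, KO and WT retinae were compared in the same way. As labelled, 0 of 10 genes were called in KO light against WT light, and 0 without moderation, where 0.176% of all genes were called. At an unadjusted p under 0.05 with the ratio limits the count was 0 as well, against 4.47% of all genes. Means of 9 of the 10 genes were higher in KO light, as were those of 8666 of all 19937 genes. The median difference was 0.16 over the 10 genes and -0.01 over all genes. Without KO light 1, Egr1 (-0.09), Egr3 (-0.07) and Nr4a3 (-0.03) were lower in KO light and the other members higher. In the exchanged fit 5 genes rose in KO light against WT light, where 8.23% of all genes were called and 4.56% called higher. Nr4a1 was 10.22 ± 0.07 in KO light and 8.96 ± 0.25 in WT light (difference 1.27, SE 0.15, adjusted p = 0.000294). Egr1 was 9.18 ± 0.71 in KO light and 8.17 ± 0.35 in WT light (difference 1.01, SE 0.27, adjusted p = 0.027), with KO light 2 (8.36) below WT light 3 (8.52). Egr2 (0.57, adjusted p = 0.0215), Btg2 (0.45, adjusted p = 0.00793) and Ier2 (0.34, adjusted p = 0.00447) had no such overlap, and neither had Nr4a1, a form that 13.9% of all genes had. Without KO light 3, Nr4a1 (1.29), Btg2 (0.41) and Ier2 (0.33) were called, where 5.24% of all genes were, while Egr1 (0.79, adjusted p = 0.127) and Egr2 (0.40, adjusted p = 0.0914) were not.

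The calls of Egr1 and Egr2 in this comparison were thus lost without the array labelled WT dark 4, and they were lost without KO light 1 too. In the exchanged fit without KO light 1, where 7.34% of all genes were called, Nr4a1 (1.22, adjusted p = 0.00194), Btg2 (0.35, adjusted p = 0.0307) and Ier2 (0.28, adjusted p = 0.0206) were called, while Egr1 (0.82, adjusted p = 0.102) and Egr2 (0.52, adjusted p = 0.0744) were not. Without KO light 2, all 5 were called, with 1.42 for Egr1 and 0.79 for Egr2, against 10.4% of all genes.

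Whether the light response differed between genotypes was tested by the interaction, in which the light difference of WT retinae is subtracted from that of KO retinae. As labelled, 0 of 10 genes were called, and 0 without moderation, against 0.0602% of all genes. Egr1 (-1.13, SE 0.47, adjusted p = 0.668) and Nr4a3 (-0.22, SE 0.09, adjusted p = 0.691) passed at an unadjusted p under 0.05, as did 6.86% of all genes. With the exchanged arrays the count was 0 again, where 2.78% of all genes were called, with -0.53 (SE 0.38, adjusted p = 0.544) for Egr1, 0.34 (SE 0.21, adjusted p = 0.474) for Nr4a1, 0.59 (SE 0.20, adjusted p = 0.155) for Egr2 and 0.38 (SE 0.13, adjusted p = 0.158) for Btg2. Of all settings run, only the exchanged fit without KO light 2 called any, namely Egr2 (adjusted p = 0.00137) and Btg2 (adjusted p = 0.00366), against 6.13% of all genes. A light response of any member that differs between KO and WT mice was thus not shown at this number of arrays.

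Genes of related roles were set beside the 10. The AP-1 genes encode the Fos and Jun proteins, immediate-early factors that bind as dimers. As labelled, 0 of 7 were called in KO light against KO dark, where 0.100% of all genes were called. At an unadjusted p under 0.05 with the ratio limits 5 passed, against 5.48% of all genes. The median difference was 0.56, against 0 over all genes. In the exchanged fit 6 of 7 rose, where 7.01% of all genes were called higher. Among them were Junb (1.14), Jun (1.06), Fosb (1.00) and Fos (0.95). The median was 0.95, against -0.01 over all genes. Fos shared the low WT dark values of Egr1 and Nr4a1, at 8.38, 7.50 and 6.71 in KO light, 6.90, 7.11 and 7.44 in WT light, 7.07, 7.07 and 7.0 in KO dark and 6.22, 6.36 and 6.21 in WT dark 1 to 3. Its KO dark against WT dark difference was 0.79 (SE 0.30, adjusted p = 0.538 as labelled and 0.056 with the exchanged arrays).

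**Figure D4:**
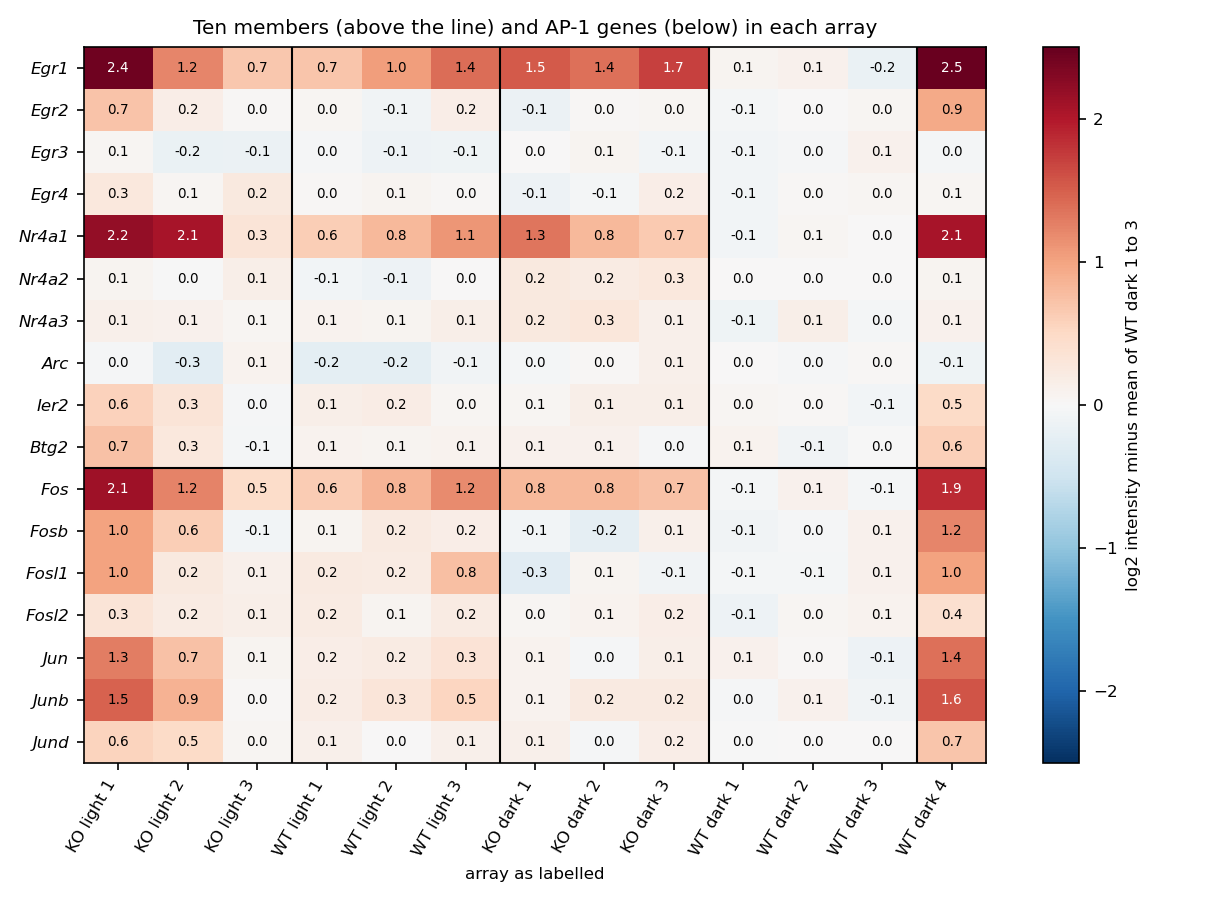
Log2 intensity minus the mean of WT dark 1 to 3 (colour and printed value) of the 10 genes, above the line, and of 7 AP-1 genes, below it, in each array as labelled. KO light 1 and the array labelled WT dark 4 carry the darkest cells, KO light 3 is pale, and in the KO dark arrays Egr1, Nr4a1 and Fos are raised while Jun and Junb are near the WT dark level.

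A further list held 32 other immediate-early and activity genes, of which 30 were measured (Cyr61 and Ctgf were not analysed here). Between KO light and KO dark 0 were called as labelled. At an unadjusted p under 0.05 with the ratio limits 6 passed, against 5.48% of all genes. With the exchanged arrays 12 rose, with a median of 0.22 over the list, where 7.01% of all genes were called higher. The largest were Gadd45b (2.73), a stress-induced regulator of DNA demethylation and MAP kinases, Atf3 (1.97), a stress-induced bZIP factor, Myc (0.89), a growth regulator, and Klf10 (0.83), a target of TGF-beta. Between KO light and WT light 0 were called as labelled. At an unadjusted p under 0.05 with the ratio limits 4 were higher and 2 lower, against 4.47% of all genes in either direction. With the exchanged arrays 10 rose, while 1, the MAP kinase phosphatase gene Dusp4 (-0.32), fell. In that fit 910 of all 19937 genes were called higher and 730 lower. Between WT light and WT dark, Gadd45b (0.82) and Pim1 (0.48), a survival kinase, rose with the exchanged arrays, where 424 of all 19937 genes were called higher. Between KO dark and WT dark none was called as labelled or exchanged, with a median of 0.05. At an unadjusted p under 0.05 with the ratio limits 2 passed as labelled, against 2.11% of all genes.

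Regulators upstream of the 10 genes (Srf, the Elk factors, Creb1 with its relatives and coactivators, the Mef2 factors and Camk4) were measured for 14 of 19. As labelled none was called in any comparison. In the exchanged fit Mef2c (-0.68), a factor of neurons and muscle, and Crtc3 (-0.23), a CREB coactivator, fell in KO light against KO dark. Elk4 (-0.29), a partner of serum response factor, and Crtc2 (-0.24) fell in WT light against WT dark. In these comparisons 1256 and 456 of all 19937 genes were called lower. In the same fit Mef2c was also lower in KO light against WT light (-0.61, adjusted p = 0.000146), and its interaction was called (-0.47, adjusted p = 0.013). Partners and corepressors were measured for 8 of 9. They are Nab1 and Nab2, which repress EGR proteins, the RXR partners of NR4A proteins, and relatives of Btg2. The only call was a rise of Nab1 (0.34) in WT light against WT dark with the exchanged arrays. In that comparison 424 of all 19937 genes were called higher.

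By their pattern over the 12 arrays, the genes most like Egr1 outside the 10 were Ppp2r1b (Pearson r = 0.930), a scaffold subunit of protein phosphatase 2A, Ccdc84 (0.917), Srrt (0.914), an RNA-processing protein, Fos (0.913) and Mxi1 (0.907), a repressor that competes with Myc. Ppp2r1b averaged 7.62 in KO light, 7.36 in WT light, 7.54 in KO dark and 6.99 in WT dark. Among the 10, Nr4a1 was nearest to Egr1 (r = 0.832), followed by Ier2 (0.732), while Egr3 (0.018) and Arc (-0.031) showed no likeness. These correlations share the group means and the same 12 arrays and are given as a description.

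Other values moved with these genes. The list of reactive glia and retinal stress genes (Gfap, Lcn2, Serpina3n, Edn2, Lif, Socs3, Stat3, Cebpd, Osmr and Vim) was measured in full. Its mean log2 intensity was 9.63, 9.35 and 8.09 in KO light 1 to 3, between 8.12 and 8.77 in WT light, between 7.85 and 7.94 in KO dark and between 7.79 and 8.03 in WT dark 1 to 3, with 9.80 in the array labelled WT dark 4. Summed intensities ran from 6068 to 16405 in KO light, 6452 to 9365 in WT light, 5236 to 5778 in KO dark and 5051 to 5422 in WT dark, and no member of the list was at 0. All 10 rose in KO light against KO dark with the exchanged arrays, where 7.01% of all genes were called higher. As labelled 0 were called, and 10 passed at an unadjusted p under 0.05 with the ratio limits, against 5.48% of all genes. Nr4a1 followed the order of this list in the light arrays, being lowest in KO light 3 and WT light 1 and highest in KO light 1 and 2. The part of this list in the light results was not tested. In the dark, where Egr1 was 1.54 higher in KO than in WT, the 2 genotypes overlapped in this list.

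Markers of amacrine cells, 6 of 6 measured, likewise had their lowest mean log2 intensity in WT dark 1 to 3, while their summed intensities in KO light and WT dark overlapped. Their mean log2 intensity was 9.42 to 9.53 in KO light, 9.45 to 9.48 in WT light, 9.53 to 9.54 in KO dark and 9.34 to 9.36 in WT dark 1 to 3, with 9.53 in the array labelled WT dark 4. Summed intensities ran from 7426 to 7858 in KO light, 7688 to 7788 in WT light, 7781 to 7854 in KO dark and 7210 to 7454 in WT dark, and no marker was at 0. The mean of every one of the 6 was higher in KO dark against WT dark (median difference 0.11), as was that of 10293 of all 19937 genes. Ganglion cell markers averaged lower in KO dark (9.28 to 9.33) than in WT dark 1 to 3 (9.34 to 9.47), with 3 of 5 lower and 2 higher. Th, which encodes the rate-limiting enzyme of dopamine synthesis, rose in KO dark against WT dark (0.48, SE 0.06, adjusted p = 0.00893) and in WT light against WT dark (0.32, SE 0.06, adjusted p = 0.0478) as labelled. Tfap2a, an AP-2 transcription factor of amacrine cells, had 0.30 in KO dark against WT dark (adjusted p = 0.0768 as labelled and 0.0137 with the exchanged arrays). The part of these markers in the results of Egr1 and Nr4a1 was not tested.

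Photoreceptor markers were low in the arrays in which Egr2, Nr4a1, Ier2 and Btg2 were high. Cone markers, 5 of 5 measured, had a mean log2 intensity of 10.15, 10.56 and 10.83 in KO light 1 to 3, 10.69 to 10.80 in WT light, 10.88 to 10.91 in KO dark and 10.91 to 10.96 in WT dark 1 to 3, with 10.13 in the array labelled WT dark 4. Their summed intensity ran from 7940 to 12525 in KO light, 11281 to 12486 in WT light, 12857 to 13372 in KO dark and 13144 to 13587 in WT dark. Between KO light and KO dark 0 of 5 were called as labelled. At an unadjusted p under 0.05 with the ratio limits 2 were lower, against 5.48% of all genes in either direction. With the exchanged arrays 5 of 5 fell (median -0.53), where 6.30% of all genes were called lower. The 6 rod markers analysed had 11.89, 12.04 and 12.13 in KO light 1 to 3, 12.18 to 12.26 in WT light, 12.16 to 12.20 in KO dark and 12.18 to 12.25 in WT dark 1 to 3, with 11.84 in the array labelled WT dark 4. Of these, 0 were called as labelled and 3 fell in KO light against KO dark with the exchanged arrays, against 6.30% of all genes. The part of these markers in the light results was not tested.

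**Figure D5:**
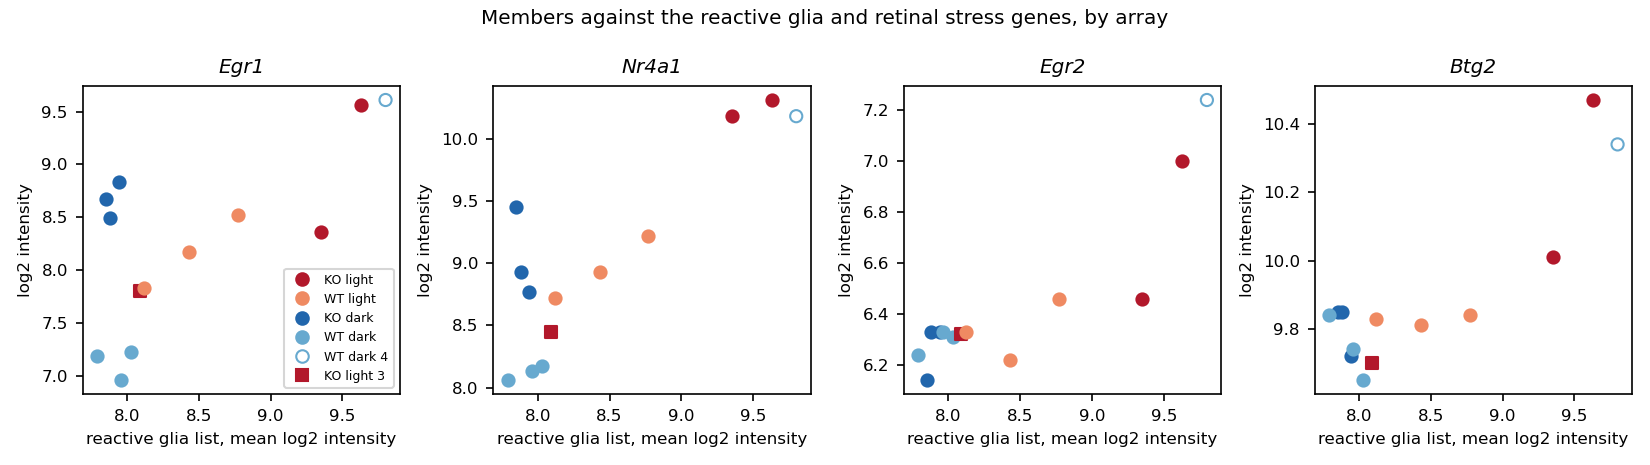
Log2 intensity of Egr1, Nr4a1, Egr2 and Btg2 (y axes) against the mean log2 intensity of 10 reactive glia and retinal stress genes (x axis), 1 point per array, with the square for the array labelled KO light 3 and the open circle for the array labelled WT dark 4. KO dark and WT dark arrays share the lowest x values and are apart on the y axis for Egr1 and Nr4a1.

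Clock genes that follow the time of day were measured for 11 of 12 (Npas2 was not analysed here). In KO dark 10 of the 11 had a higher mean than in WT dark, with a median difference of 0.08. Of all 19937 genes, 10293 had a higher mean, and the median over all genes was 0. No clock gene was called as labelled. At an unadjusted p under 0.05 with the ratio limits 1 passed, against 2.11% of all genes. Per1 responds to light and to CREB as well as to the clock. It had 9.65, 9.48 and 9.52 in KO dark and 9.24, 9.24 and 9.37 in WT dark 1 to 3. With the exchanged arrays Per1 rose by 0.27 (adjusted p = 0.0253), where 0.878% of all genes were called. The time of day of sampling was not given in the sources used here, and its part in the dark difference was not tested. Of 8 microglia and macrophage genes, 4 rose in KO light against KO dark with the exchanged arrays, where 7.01% of all genes were called higher. None was called between KO dark and WT dark as labelled or exchanged.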

How the data were processed

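RNA of mouse retina was measured on 13 Affymetrix arrays, 1 per mouse. The deposited values are linear intensities that the authors had already normalized (median 141 to 146 per array), with Partek named in the submitters' processing notes and Partek and Bioconductor in the methods. Versions, the summarization and normalization methods and the genome build were not given in the sources used here. No background per probe set was used, so dim probe sets were kept, and the number of arrays limits the precision.

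Intensities were taken to log2 and averaged per gene over probe sets with exactly 1 symbol (21640 of 34760 probe sets; 1321 carry several symbols and 11799 none), which gave 19937 genes, among them the 10 followed here. limma 3.58.1 in R 4.3.3 fitted 4 groups to 12 arrays as labelled, with 8 residual degrees of freedom before moderation, no covariates and Benjamini-Hochberg adjustment over all genes; the interaction was called on the adjusted p alone. The fit was tested on simulated data.

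The 10 genes and all lists were chosen with earlier results of these data known. From each list up to 4 called genes with the largest difference were named per comparison. Fos, Per1 and Dusp4 are named beyond this rule and were chosen after their values were seen, as were the members named at single settings. Alternatives were unmoderated variances, 13 arrays, exchanged arrays, each array left out, a replicate block, median centring, quantile normalization, a pseudocount of 16, a filter on the genes dimmest on average, probe sets tested singly and only the 6 arrays compared; the exchanged fit without KO light 1 or 2 was added after the data were seen. By the correlation of their deviations from the group means, same-numbered arrays of different groups were about as alike as differently numbered ones.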

Additional observations from a re-analysis of the deposited data

Results flagged for a closer look

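In the WT dark group of 4 arrays, the array labelled WT dark 4 stood apart from the other 3 for 4 of the 10 genes, by the gap to its nearest neighbour as a share of the range of the group, which passed Dixon's critical value. This share was 0.895 for Egr1 (9.61 in WT dark 4, between 6.96 and 7.23 in the other WT dark arrays), 0.947 for Nr4a1 (10.18, between 8.06 and 8.17), 0.908 for Egr2 (7.24, between 6.24 and 6.33) and 0.913 for Nr4a2 (8.60, between 8.52 and 8.53). Over all 19937 genes this array stood apart in the same way for 7.72% (4.60% at the upper end). Chance alone marks about 1 in 20 groups, but that rate covers any of the 4 arrays at either end. The chance rate for the array labelled WT dark 4 alone is therefore lower, and it was not computed here. The array is the only male of the group by its label, and its Xist (4.88) and Uty (9.29) log2 intensities were like those of the light arrays. For Egr1, Egr2 and Nr4a1 its level was near that of KO light 1 (9.56, 7.0 and 10.31 in this order), whereas for Nr4a2 it lay below all KO dark arrays, the lowest of which had 8.73.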

How the results depend on the processing

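As labelled, 0 of the 10 genes were called in each of the 5 comparisons. Counts with the exchanged arrays were 4 in KO light vs KO dark, 2 in WT light vs WT dark and 2 in KO dark vs WT dark. They were 5 in KO light vs WT light and 0 in the interaction. In that fit 13.3%, 4.41%, 0.878%, 8.23% and 2.78% of all genes were called in the 5 comparisons in this order. The exchange was chosen from these same intensities, so its counts are a description. With only the 6 arrays compared, 2 were called in WT light vs WT dark (3.41% of all genes) and 2 in KO dark vs WT dark (0.722%). Leaving out each array in turn gave 0 to 5 calls in KO light vs KO dark. It gave 0 to 2 in WT light vs WT dark and 0 to 2 in KO dark vs WT dark. In KO light vs WT light it gave 0 to 3, and in the interaction 0. Calls came only without KO light 3 (5, 2, 2 and 3, against 9.94%, 4.30%, 0.853% and 5.24% of all genes) and without KO light 1. Without KO light 1, Egr1 alone was called, in WT light vs WT dark (0.742% of all genes) and in KO dark vs WT dark (0.100%). The exchanged fit without KO light 1 called 6, 2, 2, 3 and 0 genes in the 5 comparisons (13.5%, 4.32%, 0.883%, 7.34% and 1.71% of all genes), where the 6 include Nr4a2 (-0.21, adjusted p = 0.0173) and Arc (-0.22, adjusted p = 0.044), both lower in KO light. Without KO light 2 it called 5, 2, 2, 5 and 2 (15.0%, 4.93%, 1.02%, 10.4% and 6.13% of all genes). The log2 difference of Egr1 in KO light vs KO dark, -0.09 as labelled, turned to 0.92 in the exchanged fit without KO light 2 and to 0.32 in that without KO light 1, and was -0.59 as labelled without KO light 1. Causes of these changes were not tested beyond the arrays left out. Unmoderated variances, 13 arrays, median centring, quantile normalization, a pseudocount of 16, the filter on dim genes (which left out Nr4a3) and probe sets tested singly called 0 members in every comparison. With the replicate number as a block 0 members were called in all 5 comparisons. Same-numbered arrays of different groups deviated from their group means with correlations of -0.192 to 0.22 (median 0.0025), so they shared only a number. No count here rests on depth, since arrays have none, and signal over background was not measured here.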
